A study of Mus musculus with 27 samples.

Results

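Threonine dehydrogenase, the enzymes of serine and glycine synthesis, and the enzymes that pass carbon from serine to folate were followed through the pluripotent states of mouse stem cells. The 10 genes were taken by symbol from an RNA sequencing (RNA-seq) table of 23608 entries: Tdh, Gldc, Phgdh, Psat1, Psph, Shmt1, Shmt2, Mthfd2, Atf4 and Asns. The study asked whether formative pluripotent stem cells (fPSCs), which lie between naive and primed pluripotency, can be kept in culture as a stable line. All 19 RNA-seq libraries were labelled wild type. There were 2 libraries of naive embryonic stem cells (mESCs), kept without feeders in N2B27 medium with the inhibitors PD035901 and Chir99021 and hLIF. Epiblast-like cells (EpiLCs, 2 libraries) were induced from mESCs in N2B27 with KSR, Activin A and bFgf2. The study describes them as metastable and not maintained as a stable line in these conditions. Comparisons of EpiLCs with fPSCs and EpiSCs thus differ in time in culture too. Primed epiblast stem cells (EpiSCs, 2 libraries) grew on inactivated mouse embryonic fibroblasts, with KSR, Activin A, bFGF2 and XAV939, an inhibitor of Wnt signalling. Epiblastoids, polarised aggregates in Matrigel under EpiLC conditions, gave 1 library each on days 2, 3 and 4. By the study's text, polarity was lost after day 3, and the day 4 cells were irregular colonies. The fPSCs grew embedded in Matrigel, in N2B27 with Activin A, bFgf2 and XAV939. By the study's text mESCs, EpiLCs and EpiSCs were flat cultures, so comparisons of fPSCs with them differ in culture format too. They gave 1 library at passage 1 (P1), 7 libraries of passage 10 or later, and 1 library each of lines derived from E5.5 and E6.5 epiblasts. Of the 7, those of P10, P20 and P30 came with the first deposit, and those of the lines 46C (P24), BVSC (P14), CMT (P11) and ROSAmTmG (P12) with a second deposit whose library protocol was worded differently. Although labelled wild type, 46C and BVSC are described in the study as reporter lines, of Sox1-GFP and of Blimp1 and Stella. ROSAmTmG came from mESCs of ROSAmT/mG mice. By the study's text, P1, P10, P20 and P30 were passages of CMT as well, and the CMT library of the second deposit was of cryopreserved cells. So 4 of the 7 are of 1 line and are not independent lines. With these 4 averaged as 1 sample, which was chosen after seeing the data, the same 6, 3 and 1 members were called against mESCs, EpiSCs and EpiLCs. Asns was added against EpiSCs. Over all genes, these comparisons then gave 5155, 5074 and 1801 calls of 12463, and 5047, 4041 and 1728 of 12513 without averaging. The labels do not say whether libraries of 1 group came from separate cultures, so p-values measure only the spread between these libraries.

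Threonine dehydrogenase, encoded by Tdh, oxidises threonine in the mitochondrion, and the product is split into glycine and acetyl-CoA. Mouse embryonic stem cells are known to depend on it. Serine is made from a glycolytic intermediate by the enzymes of Phgdh, Psat1 and Psph in turn. Serine hydroxymethyltransferase, cytosolic (Shmt1) or mitochondrial (Shmt2), then turns serine into glycine and loads a carbon unit onto tetrahydrofolate. These units feed the synthesis of purines and thymidylate and the methylation of homocysteine to methionine. The glycine cleavage system, of which Gldc encodes the decarboxylase, frees a further unit from glycine. Atf4 encodes the transcription factor of the amino acid response, and asparagine synthetase (Asns), Phgdh, Psat1, Shmt2 and Mthfd2 are among its known targets.

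Values are FPKM, the fragments of a gene divided by its length in kilobases and by the library's mapped fragments, a unit in which levels of different genes can be compared per length. Each library's FPKM summed to 307394 at least and 414727 at most, with 10034 to 10933 genes at or above 1 FPKM. The read depth behind a value is not known. The labelled states were checked against short lists of markers. Summed naive markers (6 genes) were at 1016 to 1121 FPKM in mESCs and at 54.5 to 83.6 FPKM in the 7 fPSC libraries. Summed formative markers (4 genes) were at 835 to 894 FPKM in EpiLCs and 562 to 801 FPKM in fPSCs, against 26.8 to 31.1 FPKM in mESCs. Summed primed markers (4 genes) were at 70.3 to 73.0 FPKM in EpiSCs and 24.7 to 78.9 FPKM in the 7 fPSC libraries. The sums overlapped, so they do not separate EpiSCs from fPSCs. Gene by gene, 1 of the 4 was called higher and 2 lower in fPSCs against EpiSCs, with a median log2 fold change of -2.38. Libraries of the 2 groups did not overlap for 3 of the 4, nor for 5676 of 12513 genes in all. The mean reached 1 FPKM for 4 primed markers in EpiSCs and for 2 in fPSCs. Fibroblast markers (18 genes) summed to 746 to 908 FPKM in EpiSCs, where 15 reached 1 FPKM and 0 were listed at 0. They summed to 2.70 to 7.22 FPKM in mESCs, 17.6 to 21.7 FPKM in EpiLCs and 6.96 to 12.1 FPKM in fPSCs. Of the 15 fibroblast markers tested, 15 were called higher in EpiSCs against mESCs and 13 against EpiLCs, and 14 lower in fPSCs against EpiSCs. In EpiLCs against mESCs 5 were called higher, and in fPSCs against EpiLCs 3 lower. Their part in these comparisons was not tested. In bulk libraries, fewer cells of a type and less RNA per cell cannot be told apart.

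The 10 genes did not move as a block. Leaving the naive state, Tdh, Shmt1 and Asns fell and Mthfd2 rose in all 3 comparisons with mESCs, which share the same 2 mESC libraries. Phgdh rose in EpiSCs and in fPSCs, Psat1 rose in fPSCs, and Gldc fell in EpiSCs. fPSCs differed from EpiLCs in Tdh, and from EpiSCs in higher Gldc, Shmt1 and Atf4. A gene was called changed at a Benjamini-Hochberg adjusted p under 0.05 over all genes tested, with a fold change of at least 1.5, in limma on log2(FPKM + 1). On this scale the change of genes with low values is understated. All 10 genes passed the filter on low values (1 FPKM in at least 2 libraries), together with 12513 genes in all.

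In EpiLCs against mESCs, 4 of the 10 were called, 1 higher and 3 lower, where 29.6% of all genes tested were called (12.2% higher and 17.4% lower). In EpiSCs against mESCs, 6 were called, 2 higher and 4 lower, against 47.8% of all genes (23.1% higher and 24.7% lower). In fPSCs against mESCs, 6 were called, 3 in each direction, against 40.3% of all genes (17.3% higher and 23% lower). In EpiSCs against EpiLCs, 5 were called, all lower, where 35.9% of genes were called, 20.4% higher and 15.5% lower. In fPSCs against EpiSCs, 3 were called, all higher, where 32.3% of genes were called, 13.3% higher and 19% lower. In fPSCs against EpiLCs, 1 was called, lower in fPSCs, against 13.8% of all genes (5.66% higher and 8.15% lower). The median log2 fold change of the 10 was -0.75 in EpiSCs against EpiLCs, with -0.03 over all genes tested. It was 0.43 in fPSCs against EpiSCs, with 0.02 over all genes. In the comparisons with mESCs it lay at 0.26 for EpiLCs, -0.57 for EpiSCs and 0.18 for fPSCs, with -0.06, -0.09 and -0.04 over all genes. With upper-quartile scaling, EpiLCs against mESCs gave 5 called members, 3 higher and 2 lower, and the share of higher genes among all called moved from 41.1% to 49.97%. Leaving out 1 library took the count in EpiSCs against EpiLCs to between 2 and 4 of the 10.

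**Figure D1:**
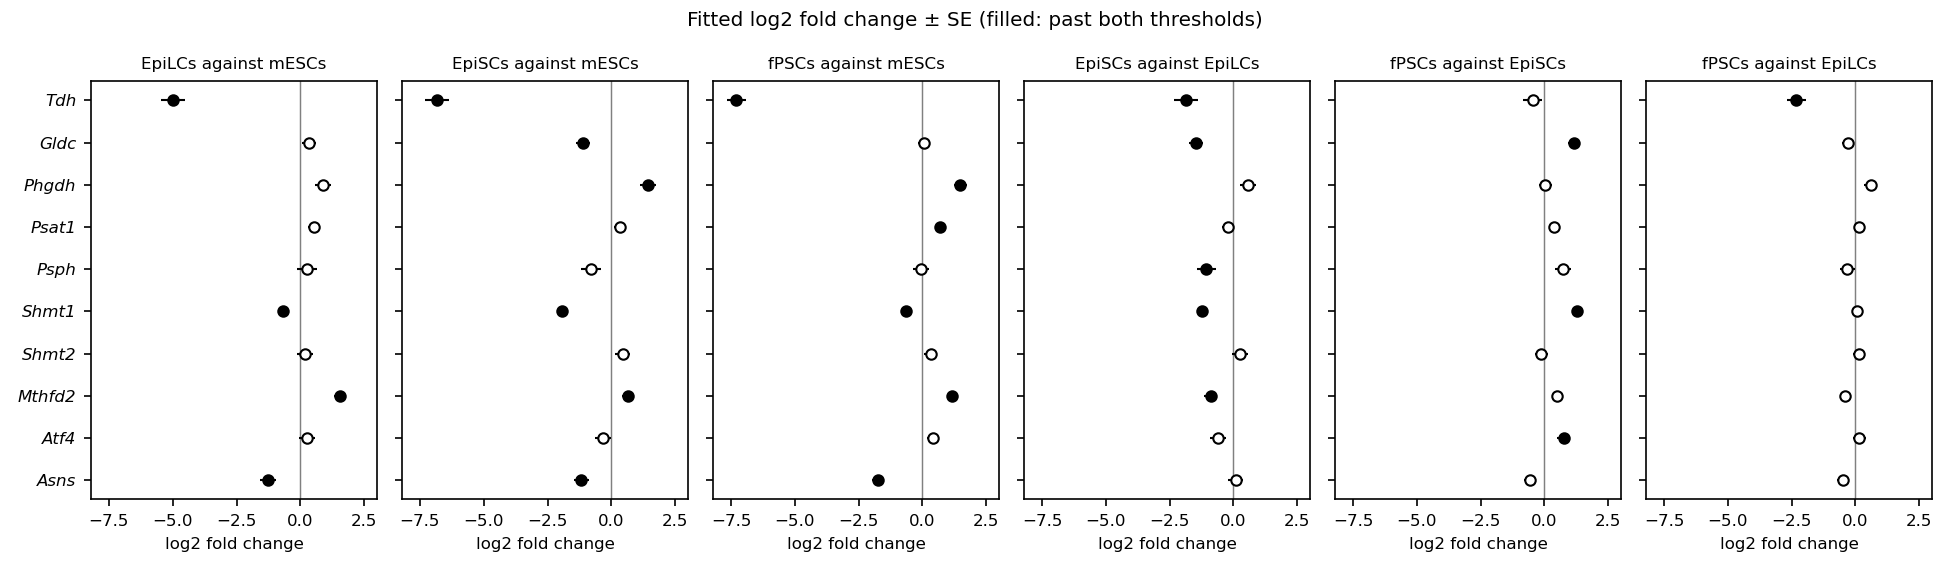
Fitted log2 fold change of each gene (points) with its SE (bars) in 6 comparisons, on the log2(FPKM + 1) scale. Filled points passed both thresholds, as Tdh did in 5 of the 6 comparisons, with its largest fall, -7.30, in fPSCs against mESCs.

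Tdh lies on the minus strand at chr14:64111184-64127929 (NCBIM37, the assembly called mm9). It was listed at 272 and 303 FPKM in the mESC libraries, at percentile 99.2 of all genes in the higher of them, and at 7.31 and 9.08 FPKM in EpiLCs. EpiSCs had 1.80 and 1.26 FPKM. The 7 fPSC libraries ran from 0.0322 FPKM (46C) over a median of 0.769 FPKM to 2.89 FPKM (BVSC). The highest value outside the mESCs was 26.6 FPKM, in Epiblastoids on day 3, and the groups of mESCs, EpiLCs and EpiSCs did not overlap. The mean fell from 288 ± 21.9 FPKM (SD, n = 2) in mESCs to 8.19 ± 1.25 FPKM (SD, n = 2) in EpiLCs. The log2 fold change was -4.98 ± 0.47 (SE; limma, adjusted p = 4.22e-06). Against mESCs it was -6.84 ± 0.47 in EpiSCs (adjusted p = 1.02e-07) and -7.30 ± 0.37 in fPSCs (adjusted p = 5.54e-09). EpiLCs kept more Tdh than either of the later states: fPSCs stood at -2.32 ± 0.37 against EpiLCs (adjusted p = 0.000915) and EpiSCs at -1.86 ± 0.47 (adjusted p = 0.00773). The last call was lost with a pseudocount of 0.1 (adjusted p = 0.0862), without EpiLC replicate 2 (adjusted p = 0.0581) and without EpiSC replicate 2 (adjusted p = 0.0636). fPSCs and EpiSCs were next to each other in this order and did not pass the threshold, with a log2 fold change of -0.46 ± 0.37 (adjusted p = 0.359). Values near 1 FPKM rest on few fragments, so the spread of Tdh among the fPSC libraries cannot be read as a difference between lines.

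Tdh and Gcat, which encodes the enzyme that completes threonine breakdown to glycine, did not fall to the same extent. Gcat had a mean of 74.1 FPKM in mESCs, 43.5 FPKM in EpiLCs, 44.8 FPKM in fPSCs and 10.5 FPKM in EpiSCs. Its log2 fold change in fPSCs against mESCs was -0.72 ± 0.14 (limma, adjusted p = 0.00104). In EpiSCs against mESCs it was -2.71 ± 0.17 (adjusted p = 5.71e-08).

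Gldc (chr19:30172939-30249908, minus strand) was listed at 62.5 and 34.9 FPKM in mESCs, 50.2 and 70.3 FPKM in EpiLCs, and 18.9 and 23.6 FPKM in EpiSCs. The 7 fPSC libraries ran from 40.7 over a median of 50.2 to 57.8 FPKM. EpiSCs were below every other library of the series, and mESCs, EpiLCs and fPSCs overlapped. The 250 bases before the RefSeq start site (chr19:30249932-30250181, minus strand) are shown for the methylation around this site, described with the promoter marks. In fPSCs it was below the median of all start sites. Capitals mark the 8 CG dinucleotides.
Gldc: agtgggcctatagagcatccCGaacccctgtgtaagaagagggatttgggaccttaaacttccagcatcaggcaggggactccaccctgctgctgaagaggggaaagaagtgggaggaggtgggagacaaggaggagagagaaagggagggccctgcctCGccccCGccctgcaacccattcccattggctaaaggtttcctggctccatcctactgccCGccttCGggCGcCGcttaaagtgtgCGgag
Gldc was lower in EpiSCs than in EpiLCs, with a log2 fold change of -1.45 ± 0.28 (limma, adjusted p = 0.00145). Against mESCs it was -1.11 ± 0.28 (adjusted p = 0.00547), a call lost without mESC replicate 1 (adjusted p = 0.0740) and without EpiSC replicate 1 (adjusted p = 0.0504). fPSCs had more Gldc than EpiSCs, by 1.16 ± 0.22 on the log2 scale (adjusted p = 0.00159). fPSCs against mESCs gave 0.05 ± 0.22 (adjusted p = 0.880).

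Of the 7 other genes of glycine and threonine breakdown, 6 were tested in these comparisons. In fPSCs against EpiSCs, 3 of them rose and 1 fell, where 13.3% and 19% of all genes did. Their median log2 fold change was 0.46. Those that rose were Gcat, Amt and Dld, of which Amt and Dld encode further parts of the glycine cleavage system. Amt, the aminomethyltransferase, had means of 30.5 FPKM in fPSCs and 18.7 FPKM in EpiSCs, a log2 fold change of 0.68 ± 0.24 (adjusted p = 0.0431).

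The first enzyme of serine synthesis, Phgdh (chr3:98117093-98143913, minus strand), was listed at 58.1 and 47.1 FPKM in mESCs and at 144 and 143 FPKM in EpiSCs. The 7 fPSC libraries ran from 115 over a median of 158 to 177 FPKM, all above both mESC libraries. EpiLCs were split, at 67.0 and 140 FPKM. The 250 bases before its start site (chr3:98143893-98144142, minus strand) hold 7 CG dinucleotides, in capitals. They are shown because the promoter of Phgdh was the least methylated of the 10 genes within 1000 bp in fPSCs. That mean rests on 12 of 21 windows, with no value from 1000 to 400 bp upstream. The ranking holds for this width only: within 500 bp the windows of Phgdh ran from 0% to 8%, and those of Asns were all at 0%.
Phgdh: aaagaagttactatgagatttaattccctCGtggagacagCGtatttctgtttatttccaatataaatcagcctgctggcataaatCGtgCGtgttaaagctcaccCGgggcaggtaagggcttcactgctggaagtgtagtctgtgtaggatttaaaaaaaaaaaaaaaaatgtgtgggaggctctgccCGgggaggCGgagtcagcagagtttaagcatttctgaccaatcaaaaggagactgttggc
Phgdh rose by a log2 fold change of 1.48 ± 0.25 in fPSCs (limma, adjusted p = 0.000379) and of 1.44 ± 0.31 in EpiSCs (adjusted p = 0.00232), both against mESCs. EpiLCs against mESCs gave 0.88 ± 0.31, just outside the threshold (adjusted p = 0.0517), and passed it without EpiLC replicate 1 (adjusted p = 0.00574) or with upper-quartile scaling (adjusted p = 0.0224). fPSCs and EpiSCs were close, at 0.04 ± 0.25 (adjusted p = 0.922). Without EpiLC replicate 2, Phgdh was called higher than in EpiLCs in both fPSCs (adjusted p = 0.0214) and EpiSCs (adjusted p = 0.0207).

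Psat1, the aminotransferase of the second step, had the highest mean of the 10 genes in EpiLCs, EpiSCs and fPSCs. Its gene is annotated by GENCODE at chr19:15979168-16021827 on the minus strand. The promoter marks described below were taken at its 2 RefSeq start sites, chr19:15999112 and chr19:15999549, which lie inside that span and not at its end. Psat1 was at 165 and 154 FPKM in mESCs and at 229 to 320 FPKM in the 7 fPSC libraries, without overlap. The log2 fold change was 0.70 ± 0.19 (adjusted p = 0.00916). That call was lost without mESC replicate 1 (adjusted p = 0.0529) and without mESC replicate 2 (adjusted p = 0.0886). EpiLCs (187 and 295 FPKM) and EpiSCs (215 and 190 FPKM) did not pass the threshold against mESCs, with log2 fold changes of 0.55 ± 0.24 (adjusted p = 0.0969) and 0.34 ± 0.24 (adjusted p = 0.251). EpiLCs passed it with upper-quartile scaling (adjusted p = 0.0341) and without EpiLC replicate 1 (adjusted p = 0.0240).

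Psph, the phosphatase of the last step (chr5:130271434-130293129, minus strand), was the least abundant of the 3 enzymes in every library. It was listed at 20.4 and 27.2 FPKM in mESCs, 23.6 and 34.2 FPKM in EpiLCs and 13.8 to 31.7 FPKM in the 7 fPSC libraries, which overlapped. EpiSCs were lowest, at 14.2 and 12.1 FPKM. Psph was called in EpiSCs against EpiLCs alone, at -1.06 ± 0.38 (adjusted p = 0.0432). That call was lost when any 1 of the 4 EpiLC and EpiSC libraries was left out, with adjusted p up to 0.244, and without the filter on low values (adjusted p = 0.0880). The ratio of Phgdh to Psph, both in FPKM, was 1.73 to 2.85 in mESCs, 4.37 to 11.4 in the 7 fPSC libraries and 10.2 to 11.8 in EpiSCs.

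**Figure D2:**
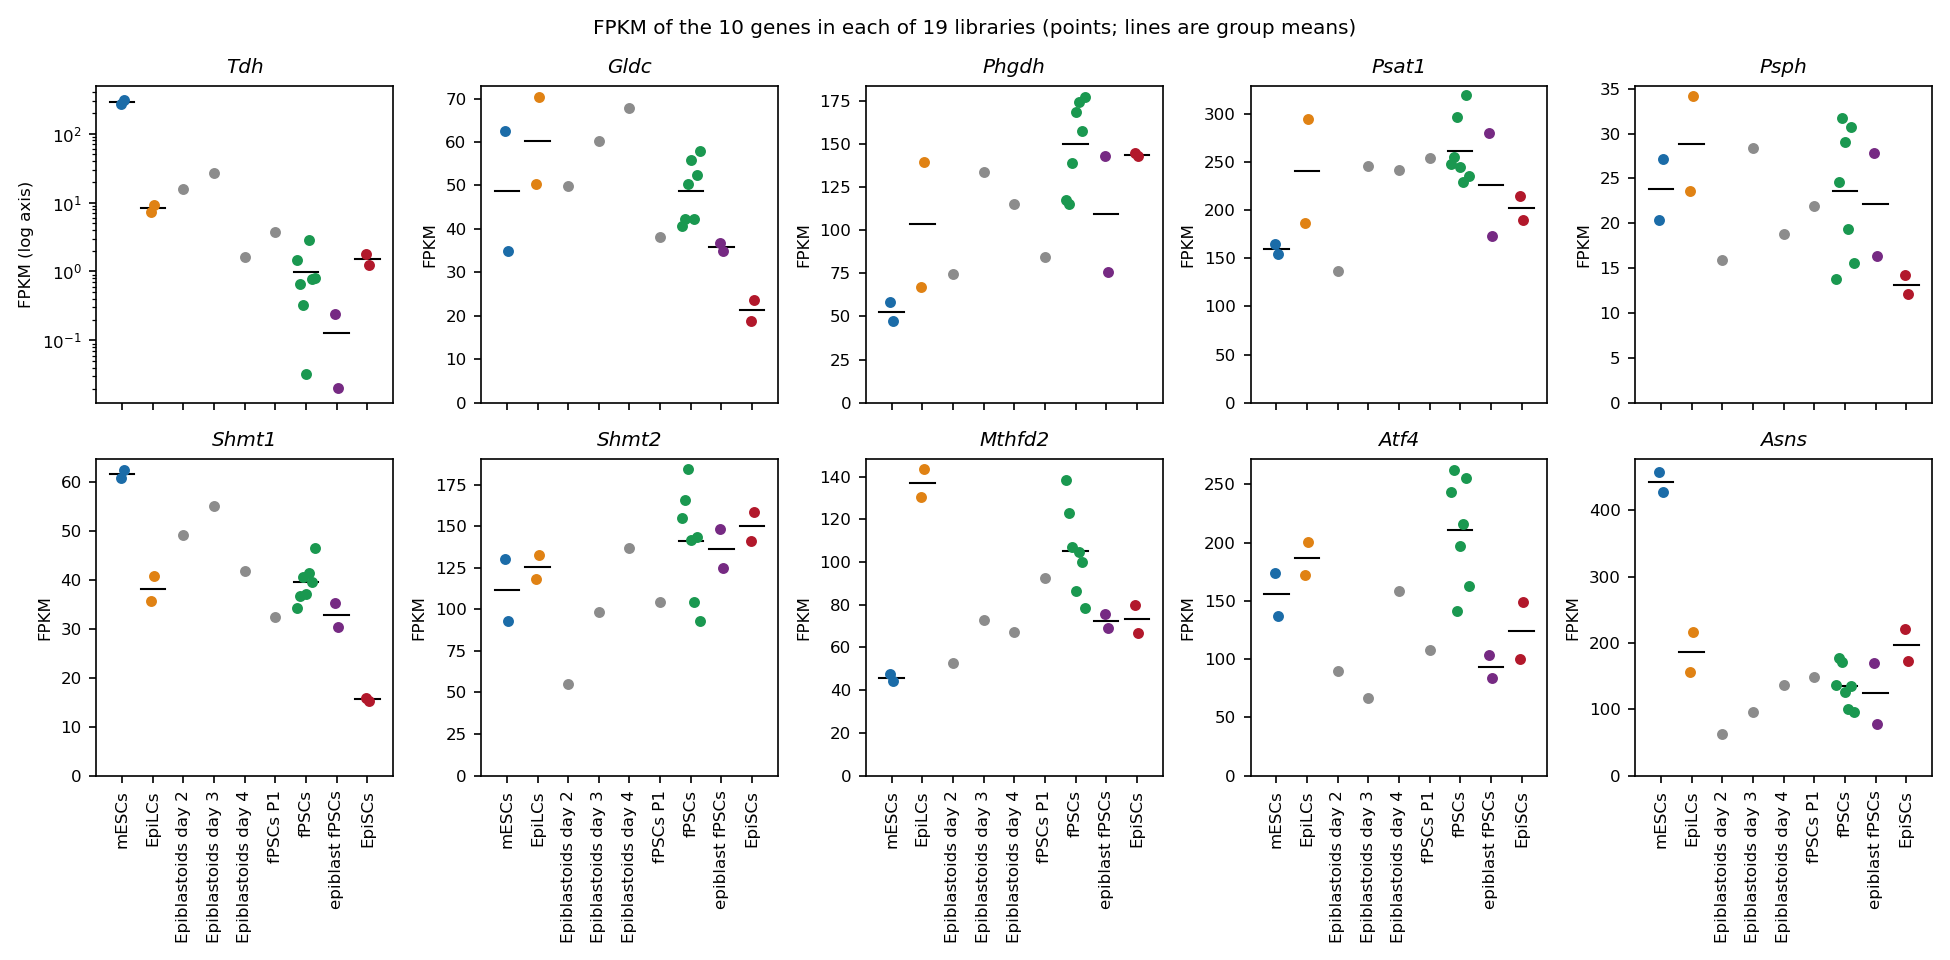
FPKM of each of the 10 genes in the 19 libraries (points), with the mean of each group of 2 or more as a line; the axis of Tdh is logarithmic, the others start at 0. Tdh drops from 272 and 303 FPKM in mESCs to at most 26.6 FPKM elsewhere, Shmt1 and Gldc are lowest in EpiSCs, and Mthfd2 is lowest in mESCs.

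The cytosolic and mitochondrial enzymes that take a carbon unit from serine changed in different ways. Shmt1 (chr11:60601606-60625220, minus strand) was listed at 60.7 and 62.3 FPKM in mESCs, 35.7 and 40.6 FPKM in EpiLCs, and 15.9 and 15.2 FPKM in EpiSCs. The 7 fPSC libraries ran from 34.2 over a median of 39.5 to 46.5 FPKM. fPSCs overlapped with EpiLCs and lay apart from both mESCs and EpiSCs. Against mESCs the log2 fold change was -1.92 ± 0.17 in EpiSCs (limma, adjusted p = 1.04e-06) and -0.63 ± 0.13 in fPSCs (adjusted p = 0.00185). It was -0.68 ± 0.17 in EpiLCs (adjusted p = 0.00772), lost without mESC replicate 2 (adjusted p = 0.0515), without EpiLC replicate 1 (adjusted p = 0.0612) and with mESCs and EpiLCs alone in the fit (adjusted p = 0.0524). With upper-quartile scaling the values in EpiLCs and fPSCs were -0.54 and -0.57, below the fold threshold. With fPSCs of the second deposit only, fPSCs were also below it, at -0.57. fPSCs were 1.28 ± 0.13 above EpiSCs (adjusted p = 9.37e-06), and EpiSCs were -1.24 ± 0.17 against EpiLCs (adjusted p = 9.06e-05). Both of these calls were kept in each alternative that was run.

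Shmt2 (chr10:126954195-126959491, minus strand) was called in none of the 6 comparisons. It was listed at 130 and 93.0 FPKM in mESCs, 118 and 133 FPKM in EpiLCs, 141 and 159 FPKM in EpiSCs and 92.8 to 184 FPKM in the 7 fPSC libraries. The largest of its fitted differences was 0.44 ± 0.30 in EpiSCs against mESCs (adjusted p = 0.242). With fPSCs of the first deposit only, it was called against mESCs (0.61, adjusted p = 0.0163). Within a library, the ratio of Shmt2 to Shmt1 was 1.49 and 2.14 in mESCs, 3.27 and 3.31 in EpiLCs, and 8.87 and 10.5 in EpiSCs. In fPSCs it ran from 2.00 to 4.55, below both EpiSC libraries. Shmt1 and Shmt2 overlap Smcr8 and Ndufa4l2 on the other strand, and whether the counting used strand is not given in the sources used here, so reads of these pairs may not have been separated.

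**Figure D3:**
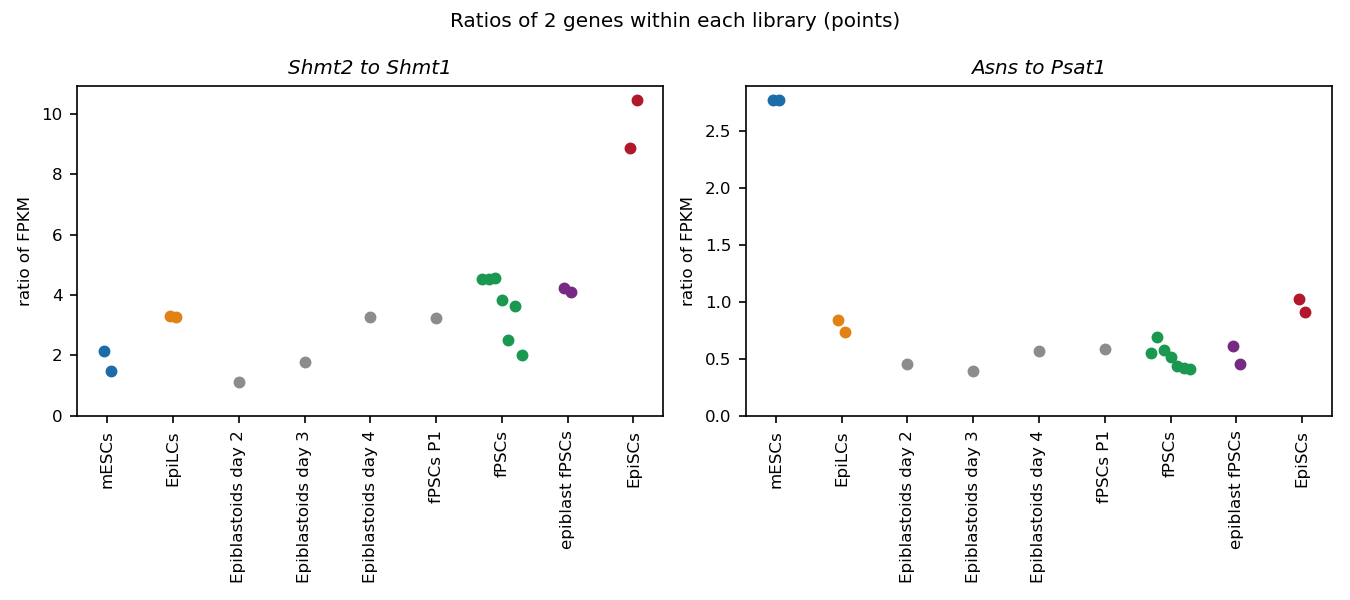
Ratio of the FPKM of Shmt2 to Shmt1 (left) and of Asns to Psat1 (right) in each of the 19 libraries (points), by group. The first ratio is highest in EpiSCs, at 8.87 and 10.5, and the second is highest in mESCs, at 2.77 and 2.78.

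Mthfd2, a mitochondrial dehydrogenase of the folate pathway (chr6:83255685-83267600, minus strand), was lowest in mESCs, at 47.4 and 44.1 FPKM. EpiLCs had 130 and 143 FPKM, EpiSCs 79.8 and 66.9 FPKM, and the 7 fPSC libraries 78.3 to 139 FPKM. Neither mESC library overlapped with any of the other libraries. Mthfd2 rose against mESCs by a log2 fold change of 1.56 ± 0.24 in EpiLCs (limma, adjusted p = 0.000322) and 1.16 ± 0.19 in fPSCs (adjusted p = 0.000320). In EpiSCs it rose by 0.66 ± 0.24 (adjusted p = 0.0378), and this call was lost when any 1 of the 4 mESC and EpiSC libraries was left out, with adjusted p of 0.0670 to 0.186, and without the filter on low values (adjusted p = 0.0538). EpiSCs were below EpiLCs, at -0.90 ± 0.24 (adjusted p = 0.0119). That call was lost without EpiLC replicate 2 (adjusted p = 0.0714) and without EpiSC replicate 2 (adjusted p = 0.0992). fPSCs and EpiLCs did not pass the threshold, at -0.40 ± 0.19 (adjusted p = 0.211).

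Asns and Atf4, its known regulator, were called in different comparisons. Asns (chr6:7625169-7643254, minus strand) was the most abundant of the 10 genes in mESCs, at 458 and 428 FPKM. EpiLCs had 156 and 217 FPKM, EpiSCs 220 and 173 FPKM, and the 7 fPSC libraries 96.3 over a median of 135 to 177 FPKM. Both mESC libraries were above all 17 others. Asns fell by a log2 fold change of -1.74 ± 0.24 in fPSCs against mESCs (limma, adjusted p = 6.57e-05). It was -1.26 ± 0.30 in EpiLCs (adjusted p = 0.00623), lost without EpiLC replicate 1 (adjusted p = 0.0674), and -1.18 ± 0.30 in EpiSCs (adjusted p = 0.00592), lost without EpiSC replicate 2 (adjusted p = 0.0582). EpiLCs, EpiSCs and fPSCs did not pass the threshold against each other. With fPSCs of the second deposit only, Asns was lower in fPSCs than in EpiSCs (-0.78, adjusted p = 0.00887) and than in EpiLCs (-0.69, adjusted p = 0.0326). With the 4 CMT libraries averaged it was lower than in EpiSCs as well (-0.73, adjusted p = 0.0293). Within a library, Asns stood at 2.77 and 2.78 times Psat1 in mESCs and at 0.408 to 0.692 times Psat1 in the 7 fPSC libraries.

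Atf4 (chr15:80085614-80087970, plus strand) was listed at 174 and 137 FPKM in mESCs, 173 and 201 FPKM in EpiLCs, 100 and 149 FPKM in EpiSCs, and 141 over a median of 216 to 262 FPKM in the 7 fPSC libraries. None of the 3 comparisons with mESCs passed the threshold for Atf4, the largest being 0.41 ± 0.25 in fPSCs (adjusted p = 0.197). Atf4 was higher in fPSCs than in EpiSCs, by 0.75 ± 0.25 (adjusted p = 0.0321), although the libraries of both groups overlapped. This call was lost without EpiSC replicate 1 (adjusted p = 0.323), without EpiSC replicate 2 (adjusted p = 0.0568), without the filter on low values (adjusted p = 0.0622) and with fPSCs of the first deposit only (adjusted p = 0.0636). Since Atf4 is also known to be controlled in its translation, its RNA level is not a measure of its activity.

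The 250 bases before the Asns start site (chr6:7643210-7643459, minus strand) are shown because they hold the letters to which ATF4 is known to bind together with a C/EBP factor. The pattern TGATGNAA was searched on both strands from 250 bases before to 50 bases after each start site. The capitals mark the match, whose first base lies at -23.
Asns: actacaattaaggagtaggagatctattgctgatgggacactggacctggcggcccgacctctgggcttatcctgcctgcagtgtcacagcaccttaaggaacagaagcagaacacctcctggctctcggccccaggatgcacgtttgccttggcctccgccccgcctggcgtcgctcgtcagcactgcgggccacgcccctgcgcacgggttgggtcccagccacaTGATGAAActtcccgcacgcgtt
Asns was the only 1 of the 9 genes with a promoter in the RefSeq table to hold this pattern, which 3.97% of 32851 promoters hold. Of 23 other genes of the ATF4 pathway with a promoter in the table, 9 hold it, among them Atf3, Chac1, Nupr1 and Trib3. The CCAAT box (CCAAT, both strands) was in 7 of the 9 and in 37.4% of all promoters. A match is a description of the sequence and not of a bound site.

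Around the 10 genes, 81 further genes were grouped in 6 lists. Of all genes tested, 12.2% rose and 17.4% fell in EpiLCs against mESCs, 23.1% and 24.7% in EpiSCs, and 17.3% and 23% in fPSCs. Of the 10 amino acid transporters, 6 rose and 0 fell in EpiLCs against mESCs, 5 and 0 in EpiSCs, and 6 and 0 in fPSCs. Their median log2 fold change was 1.24, 1.12 and 1.30, and the counts were the same with upper-quartile scaling. Slc38a2, a transporter of small neutral amino acids, went from 27.7 FPKM in mESCs to 135 FPKM in EpiLCs and 77.8 FPKM in fPSCs, log2 fold changes of 2.21 ± 0.29 (adjusted p = 7.59e-05) and 1.46 ± 0.23 (adjusted p = 0.000208). Slc1a4, a transporter of serine and alanine, went from 5.86 FPKM in mESCs to 26.8 FPKM in fPSCs, 2.01 ± 0.19 (adjusted p = 2.25e-06). Slc38a1 rose from 10.7 to 59.1 FPKM in EpiSCs, 2.36 ± 0.34 (adjusted p = 9.17e-05).

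In the methionine cycle and transsulfuration (11 of 13 genes tested), 2 rose and 5 fell in fPSCs against mESCs, with a median of -0.59. Of all genes in that comparison, 17.3% rose and 23% fell. Bhmt and Dmgdh, which act in the use of betaine and its product, had means of 32.5 and 30.4 FPKM in mESCs. In fPSCs they were at 0.00111 and 0.00785 FPKM, log2 fold changes of -5.07 ± 0.08 (adjusted p = 2.84e-13) and -4.95 ± 0.10 (adjusted p = 1.08e-12). Cbs, the first enzyme of transsulfuration, was at 63.6 FPKM in mESCs and 1.70 FPKM in EpiSCs, -4.55 ± 0.31 (adjusted p = 9.05e-08). fPSCs held 14.5 FPKM of Cbs, above EpiSCs by 2.49 ± 0.25 (adjusted p = 5.74e-06).

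In the folate cycle and its transport (15 of 16 genes tested), 3 rose and 3 fell in fPSCs against mESCs (4 and 3 with upper-quartile scaling). Of all genes in that comparison, 17.3% rose and 23% fell. In EpiSCs against mESCs 1 rose and 5 fell (23.1% and 24.7% of all genes). In EpiLCs against mESCs 1 rose and 1 fell (12.2% and 17.4% of all genes). Aldh1l1, which oxidises formyl-tetrahydrofolate, went from 34.3 FPKM in mESCs to 0.684 FPKM in EpiLCs, -4.38 ± 0.45 (adjusted p = 9.17e-06). Of the 8 purine synthesis genes, 4 rose and 0 fell in fPSCs against EpiSCs (3 and 0 with upper-quartile scaling). The shares of all genes were 13.3% and 19%. In EpiSCs against EpiLCs, 0 rose and 5 fell, with 20.4% and 15.5% of all genes. Of the 27 genes of the ATF4 pathway, 1 rose and 5 fell in fPSCs against mESCs, where 17.3% and 23% of all genes did. Their median was 0.04, and 3 rose and 5 fell with upper-quartile scaling. Nupr1, a stress-response gene, fell from 44.7 to 0.254 FPKM in that comparison (-5.21 ± 0.25, adjusted p = 2.64e-09). Chac1, which degrades glutathione, was at 73.0 FPKM in EpiLCs and 7.33 FPKM in mESCs (3.15 ± 1.07, adjusted p = 0.0409). Atf5, a relative of Atf4, was higher in EpiSCs (82.8 FPKM) than in fPSCs (24.3 FPKM), at -1.86 ± 0.40 in fPSCs against EpiSCs (adjusted p = 0.00337).

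Within the fPSCs, none of the 10 genes passed both thresholds between the deposits or against the lines derived from epiblasts. In the 4 libraries of the second deposit against the 3 of the first, 0 of the 10 were called by limma. Of 11074 genes, 29.2% were called there (20.4% higher and 8.79% lower). Shmt2 was lower in the second deposit, with a mean of 121 ± 25.9 FPKM (SD, n = 4) against 168 ± 14.7 FPKM (SD, n = 3). Its log2 fold change was -0.50 ± 0.17 (adjusted p = 0.0390), and that of Mthfd2 -0.41 ± 0.14 (adjusted p = 0.0334), both below the fold threshold. Phgdh had means of 169 and 124 FPKM, 0.45 ± 0.19 (adjusted p = 0.0812). The median over all genes tested was 0.19, so Shmt2 and Mthfd2 stood lower, relative to it, than their own values say. Shmt2 passed both thresholds without the 46C library (-0.59, adjusted p = 0.0237) and without the CMT library (-0.59, adjusted p = 0.0277). CMT, the 1 line in both deposits, had 155 FPKM of Shmt2 at P10 in the first and 143 FPKM at P11 in the second, and 139 and 99.9 FPKM of Mthfd2. With 1 CMT library in the second deposit this was not tested, and the other 3 lines were in the second deposit alone.

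The lines from E5.5 and E6.5 epiblasts (P10) were compared with fPSCs of the same deposit, which were 3 passages of CMT, and 0 of the 10 were called by limma where 0.894% of 11074 genes were called (0.415% higher and 0.479% lower). Mthfd2 and Atf4 had the lowest adjusted p of the 10. Atf4 was at 103 and 83.6 FPKM in the epiblast lines and at 244, 262 and 141 FPKM in P10, P20 and P30, without overlap, a log2 fold change of -1.15 ± 0.27 (adjusted p = 0.0964). It passed the threshold without the P30 library (-1.43, adjusted p = 0.0289). Mthfd2 was at 75.8 and 69.0 FPKM against 139, 123 and 107 FPKM, -0.75 ± 0.16 (adjusted p = 0.0738). Phgdh was at 143 FPKM in the E5.5 line and 75.6 FPKM in the E6.5 line, and Asns at 170 and 78.0 FPKM, so the 2 lines differed by more from each other than their mean did from the other fPSCs.

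Epiblastoids gave 1 library a day, so their values have no replicate check. From day 2 to day 3, 9 of the 10 genes were higher and the median log2 ratio of FPKM + 1 was 0.66, with 0.12 over all genes. None of them passed 2-fold, which 3.11% of genes did upward and 2.47% downward. All 3 genes of serine synthesis were higher on day 3: Phgdh went from 74.3 to 133 FPKM, Psat1 from 137 to 246 FPKM and Psph from 15.9 to 28.4 FPKM. Atf4 was the 1 gene that was lower, at 89.5 and then 66.6 FPKM. From day 3 to day 4, Tdh went from 26.6 to 1.63 FPKM, a log2 ratio of -3.39, and Atf4 from 66.6 to 159 FPKM, a log2 ratio of 1.24. These were the 2 members past 2-fold, where 7.85% of all genes were past it upward and 8.22% downward. Asns was lowest of the series on day 2, at 62.3 FPKM, and stood at 95.6 FPKM on day 3 and 137 FPKM on day 4. Shmt2 went from 55.2 over 98.2 to 137 FPKM. Tdh on days 2 and 3, at 15.9 and 26.6 FPKM, was above both EpiLC libraries. In fPSCs at P1, Tdh was at 3.71 FPKM, above all 7 later fPSC libraries, and Phgdh at 84.3 FPKM, below all 7.

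Chromatin marks were measured in fPSCs at P10 as ChIP-seq of H3K4me3, a mark of active promoters, and of H3K27me3, a mark of Polycomb silencing, and as bisulfite sequencing of DNA methylation. Each mark came as 1 deposited table, and it is not stated whether replicates were pooled in it, so the values have no spread. Within 1000 bp of the start site, H3K4me3 averaged 2.55 to 11.1 RPKM (reads per kilobase, scaled to the mapped reads) at the 10 start sites of the 9 genes other than Tdh. The median over 20351 start sites of protein-coding genes was 3.02 RPKM, and 6.10 RPKM over genes with a mean of 10 FPKM or more in fPSCs. Psat1 was highest (11.1 RPKM at 1 of its 2 start sites), and Gldc (2.55 RPKM) and Phgdh (3.38 RPKM) were lowest. Phgdh RNA nevertheless averaged 150 FPKM in fPSCs, against 23.5 FPKM for Psph at 10.5 RPKM of H3K4me3. Over Gldc, Phgdh and Asns, the H3K4me3 signal lay mostly downstream of the start site.

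Methylation within 1000 bp, as the unweighted mean of 100-bp windows with a value, was 2.67% at Phgdh, 10.4% at Asns and 14.8% at Gldc. At Mthfd2 and Shmt2 methylation was 27.4% and 30.7%. Within 500 bp it was between 0% and 13.2% at the 10 start sites, and 1.17% at Gldc. The median within 1000 bp was 33.6% over all start sites. It was 16.8% over genes with a mean of 10 FPKM or more in fPSCs (quartiles 7.89% and 27.6%). Gldc lay between these quartiles, and Shmt2 above the upper one. Coverage is not in the file. Tdh was the most methylated of the 10 genes, with 82.6% over 16 windows, and had the least H3K4me3, 1.07 RPKM, within 1000 bp. Its H3K27me3 was 0.950 RPKM, close to that of Shmt2. Within 2500 bp it was 0.605 RPKM, inside the range of the other start sites (0.0251 to 0.757 RPKM). Its start site was taken from GENCODE (chr14:64127929), since it is not in the RefSeq table. Genes with a mean under 1 FPKM in fPSCs had medians of 83.6% methylation, 0.532 RPKM of H3K4me3 and 0.552 RPKM of H3K27me3. Tdh was only just among them, with a mean of 0.991 FPKM, and was at 1.46 FPKM in the P10 library. Within 500 bp, methylation at Tdh was 92.4%. The H3K27me3 value of Tdh was at percentile 81.4 of all start sites, and that of Shmt2, at 0.889 RPKM, at percentile 79.9. The other 8 genes were between 0.0610 and 0.490 RPKM. The lowest value listed above 0 in a bin was 1.24 RPKM for H3K4me3 and 0.64 RPKM for H3K27me3, so averages near these values rest on few reads.

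**Figure D4:**
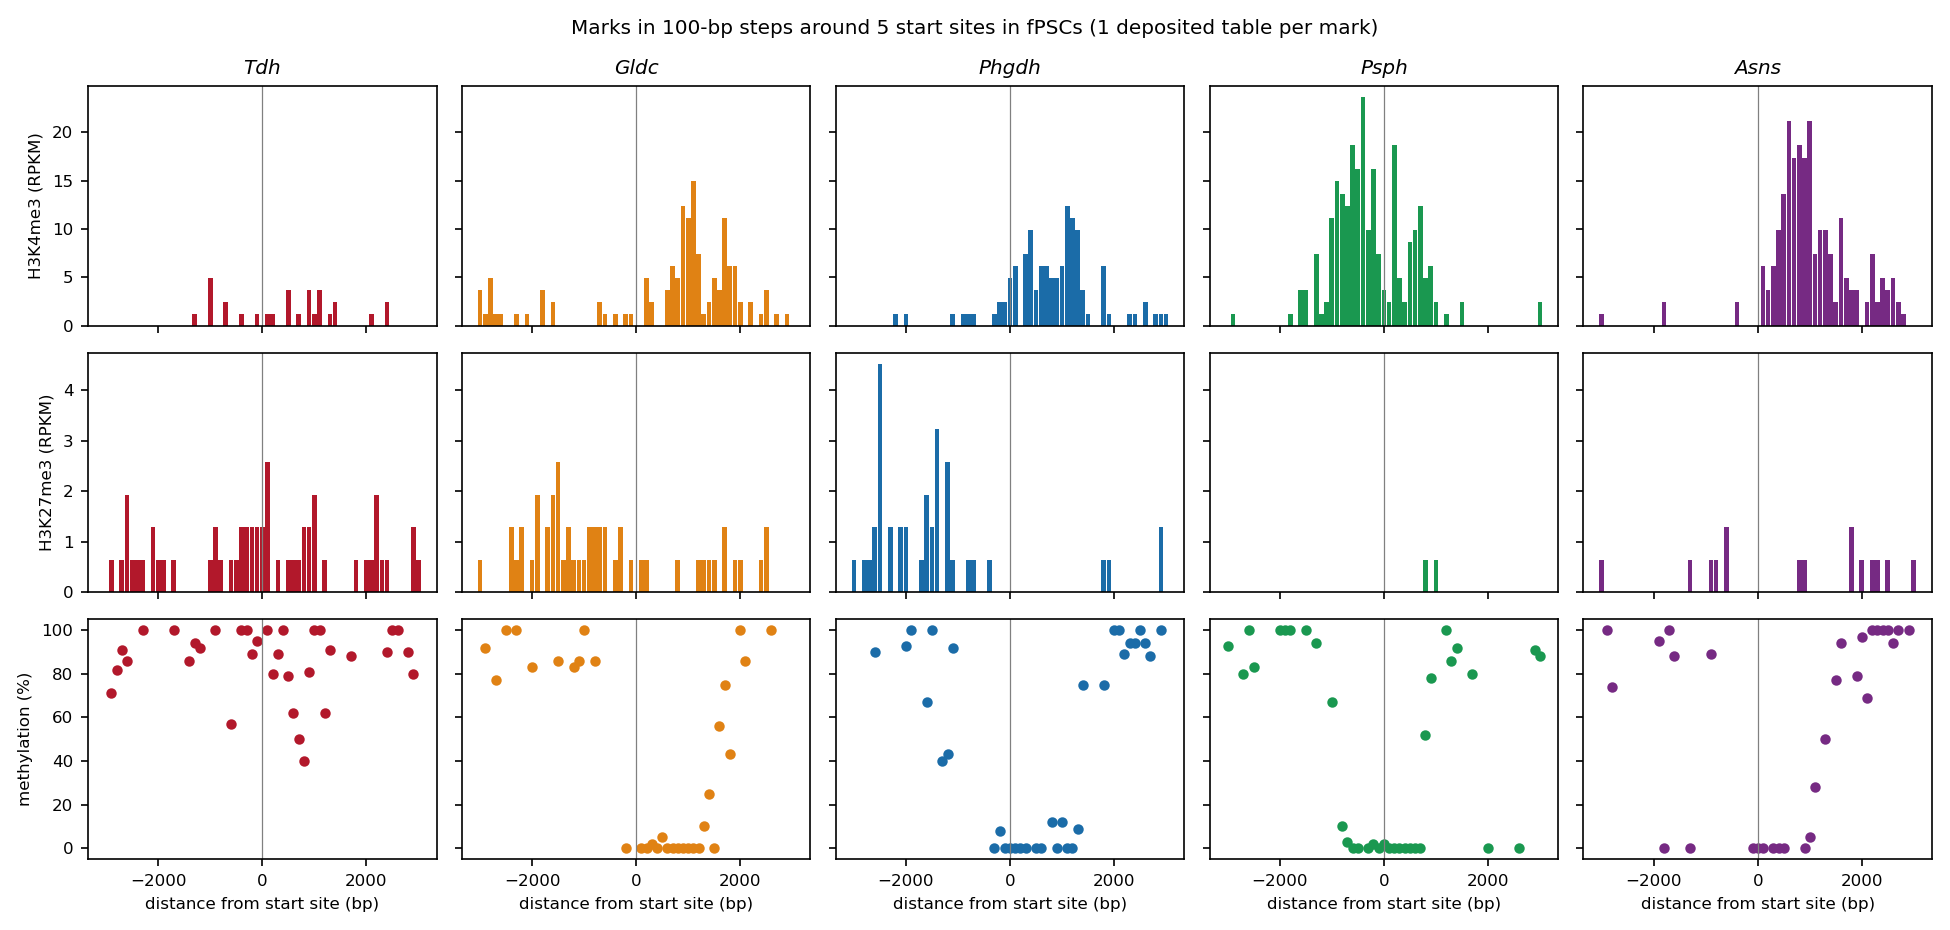
H3K4me3 and H3K27me3 (RPKM in 100-bp bins, bars) and methylation (% in 100-bp windows, points) against the distance from the start site, for Tdh, Gldc, Phgdh, Psph and Asns in fPSCs; positive distances are downstream. Tdh has methylated windows on both sides of its start site and little H3K4me3, while the other 4 have a stretch of little or no methylation at the start site.

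Single fPSCs of 4 clones, sequenced with Smart-seq2, gave a view of the same genes by clone. The deposited tables hold 182 columns of cells, of which 2 carry the same cell name and differ in their counts. Counts per clone ran from 1501395 to 4712214. Summed over each clone, Psat1 had the highest level of the 10, at 523 to 742 CPM (a gene's share of the clone's counts, scaled to a fixed total), with a count in 92.9% of cells. Tdh had 0, 5, 21 and 0 counts in clones 1 to 4, in 3 cells, and 95.2% or more of a clone's counts came from 1 cell. A count of 0 allows up to 2.00 CPM in clone 1 and 1.22 CPM in clone 4, at 3 counts of the total and for counting error only. Shmt1 was the most even of the 10 between clones, at 144 ± 9.28 CPM (SD, n = 4), and Asns ran from 112 CPM in clone 4 to 311 CPM in clone 2. In a clone, 1 cell gave 14.6% to 36.3% of the Shmt1 counts and 15.3% to 18.3% of the Asns counts. Cells held from 307 to 722865 counts in all, so these sums lean on cells with many counts. Phgdh, at a mean of 150 FPKM in the bulk fPSC libraries, was at 5.33 to 19.3 CPM with a count in 23.6% of cells. CPM of single cells are not per length and were counted with other tools, so the 2 values cannot be compared. With 1 sum per clone and no condition between clones, no test was made.

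Across the 19 libraries, which include replicates of the same groups, the genes most like Tdh by Pearson's r of log2(FPKM + 1) were Zfp42 (r = 0.97), Adap1, Grtp1, Rec114 and Tuba3a (r of 0.95 each), among 7831 genes. Zfp42, also known as Rex1, is a marker of the naive state and was among the naive markers above, with a mean of 365 FPKM in mESCs and 0.0172 FPKM in fPSCs. In fPSCs its promoter, too, was methylated, at 86.0% within 1000 bp, as were those of Tuba3a, at 96.6%, and Rec114, at 90.3%, while those of Adap1 and Grtp1 were at 20.2% and 6.62%. For Gldc the most similar were Ydjc (r = 0.86), Pes1 and Ndrg2 (r = 0.83 each), and for Asns Tbrg1 (r = 0.87), Commd10 (r = 0.86) and Prkcz (r = 0.85). Among the 10 genes, the highest r were between Gldc and Shmt1 (0.76) and between Phgdh and Psat1 (0.72), and the lowest was between Tdh and Phgdh (-0.70). Atf4 and Asns had an r of 0.26.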

How the data were processed

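The authors trimmed RNA-seq reads with cutadapt 1.11, aligned them with TopHat2 2.1.1 to Ensembl mouse cDNA (mm9) and deposited FPKM per gene from Cufflinks 2.1.1. The authors deposited ChIP-seq values as RPKM (reads per kilobase, scaled to mapped reads) over 100-bp bins (Trim Galore, Bowtie2 2.2.2, mm9, duplicates and multiply mapped reads removed). Bisulfite sequencing was deposited as the methylated fraction in 100-bp windows (BS-Seeker2, mm9). Single-cell counts were deposited as raw counts per gene, made by the authors with Drop-seq_tools. Versions are from the methods and the submitters' processing notes.

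From FPKM, log2(FPKM + 1) was fitted with limma 3.58.1 (R 4.3.3, trend option). The first fit held mESCs, EpiLCs, EpiSCs and the 7 fPSC libraries. A further fit held the 3 fPSC libraries of the first deposit, the 4 of the second and the 2 epiblast lines. The limma step was tested on simulated data. Of 23608 entries, 4 with repeated names were left out. The study's methods name a count test, which FPKM do not allow. Single libraries were compared as log2 ratios without a test.

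Promoter sequences come from RefSeq (GRCm38.p6 table, 9 of the 10 genes) and were placed in NCBIM37 with minimap2 2.31-r1302 where all 300 bases matched (31746 of 32851). Other positions come from GENCODE vM1. Marks are means over bins within 1000 bp. Other genes named are, per comparison, among those called, without overlap and with a mean of at least 10 FPKM in 1 group, up to 3 with the largest rise and 3 with the largest fall. Gcat, Amt and Dld in other comparisons were named after their values were seen. Genes alike in pattern had to reach 10 FPKM in a library. The members, lists and rules were chosen with earlier results of these data known. Alternatives were a pseudocount of 0.1, no filter, upper-quartile scaling, the compared groups alone and 1 deposit alone. Others were the replicate number as a block, and windows of 500 and 2500 bp. Each library of mESCs, EpiLCs and EpiSCs was left out in turn. Single fPSC libraries were left out only in the comparisons within fPSCs. Averaging the 4 CMT libraries as 1 sample was added after seeing the data.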

Additional observations from a re-analysis of the deposited data

How the results depend on the processing

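Of 44 counts of members recomputed without leaving out single replicates, 42 stayed within 1.5 times of the value given. Some of the 44 used fPSCs of 1 deposit only, and counts of 0 that stayed at 0 are among the 42. The members called could differ at a similar count. Of the 5 called in EpiLCs against mESCs with upper-quartile scaling, 3 were among the 4 given. With fPSCs of the second deposit only, 5 were called in fPSCs against EpiSCs and 3 in fPSCs against EpiLCs. Over all genes, 5805 and 2648 of 12482 were called there. Leaving out single replicates gave 3 to 4 in EpiLCs against mESCs, 4 to 5 in EpiSCs against mESCs, 5 in fPSCs against mESCs, 2 in fPSCs against EpiSCs, 1 to 2 in fPSCs against EpiLCs, 2 to 4 in EpiSCs against EpiLCs, and 0 to 1 in both comparisons within fPSCs. The lowest counts came without EpiSC replicate 2 in EpiSCs against EpiLCs, and the single calls within fPSCs were Atf4 without P30 and Shmt2 without 46C or CMT. Over all genes, fPSCs against EpiLCs gave 1728 calls, 3178 with the first deposit only, 2648 with the second only and 865 to 890 with an EpiLC replicate left out. Without EpiSC replicate 2, fPSCs against EpiSCs gave 1523 of 4041 calls. The epiblast lines gave 99 calls, and 50 without the filter on low values. Calls kept in every alternative run were Tdh, Phgdh, Mthfd2 and Asns in fPSCs against mESCs, and Tdh, Phgdh and Shmt1 in EpiSCs against mESCs. So were Tdh and Mthfd2 in EpiLCs against mESCs, Gldc and Shmt1 against EpiSCs in both fPSCs and EpiLCs, and Tdh in fPSCs against EpiLCs. No alternative left a single fPSC library out of a comparison of fPSCs with another state.

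The replicate numbers were not treated as pairs, since deviations from the group means correlated at 0.20 for mESCs and EpiLCs, -0.20 for mESCs and EpiSCs and -0.13 for EpiLCs and EpiSCs (12513 genes). With the replicate number as a block, 4 members were called in EpiLCs against mESCs, 7 in EpiSCs against mESCs (Psph was added) and 5 in EpiSCs against EpiLCs.

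Members whose sign turned were, in each case, below the threshold in the values given. Tdh in the second deposit against the first went to -0.098 with a pseudocount of 0.1. With upper-quartile scaling, Psph in fPSCs against mESCs came to 0.0049 and Shmt1 in fPSCs against EpiLCs to -0.022. With fPSCs of the first deposit only, Gldc against mESCs came to -0.079, Phgdh against EpiSCs to -0.22, Shmt2 against EpiSCs to 0.16 and Shmt1 against EpiLCs to -0.038. With the second deposit only, Shmt2 against EpiLCs came to -0.080, and with the CMT libraries averaged to -0.036. With single replicates left out, the ranges across 0 were as follows. Against mESCs, Gldc ran from -0.071 to 0.75 and Shmt2 from -0.054 to 0.43 in EpiLCs, and Gldc from -0.36 to 0.46 and Psph from -0.26 to 0.14 in fPSCs. Against EpiLCs, Psat1 ran from -0.18 to 0.47 and Shmt1 from -0.049 to 0.13 in fPSCs, and Psat1 from -0.54 to 0.11 and Asns from -0.15 to 0.32 in EpiSCs. In the epiblast lines, Phgdh ran from -0.70 to 0.21, Psat1 from -0.61 to 0.073, Psph from -0.41 to 0.31 and Asns from -1.03 to 0.082. In the second deposit against the first, Tdh ran from -0.096 to 0.40, Psat1 from -0.17 to 0.017, Psph from -0.28 to 0.29 and Atf4 from -0.30 to 0.14. The cause was not tested.

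With windows of 2500 bp, methylation at the 10 start sites other than that of Tdh was 37.7% to 57.2%, and 86.1% at Tdh. Read depth of the FPKM is unknown, which limits what can be said of values near 1 FPKM. With 1 replicate of a group left out, the remaining library was assumed to vary like the other groups.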
